A study of Mus musculus with 4 samples.

Results

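The brain transcriptome of mice made hypertensive with angiotensin II, but spared a stroke, is described here from 12 of the 24 libraries of the series. Membership followed the group names alone, with 6 libraries of hypertensive sham mice (HT + Sham) set against 6 of normotensive sham mice (NT + Sham), and every gene counted in them was kept. All were male C57BL/6J mice of 3 to 5 months carrying a subcutaneous pump, which over 28 days delivered saline to NT + Sham and a daily 0.28 mg/kg of angiotensin II to HT + Sham. Sham surgery on day 7 was common to both groups and included anaesthesia, scalp incision and the dye Rose Bengal, with the illumination that triggers thrombosis left out. Polyadenylated RNA was taken from a coronal section that contained the prefrontal cortex, so neurons, glia, vessels and adjoining tissue were read together, and fewer cells of a type cannot be told apart from less RNA per cell.

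Angiotensin II is the effector peptide of the renin-angiotensin system. Renin cleaves angiotensinogen to angiotensin I, angiotensin-converting enzyme turns this into angiotensin II, and the type 1 receptor carries most of its pressor actions, whereas the receptor Mas belongs to a counter-regulatory arm. In cerebral vessels the peptide is known for superoxide production by NADPH oxidases, endothelial dysfunction, remodelling of the vessel wall and recruitment of immune cells. The question put to these libraries was which of these genes, and which others, differed in the brain after 28 days of infusion.

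The deposited tables held whole-number read counts, with library totals of 16848048 to 19531058 for HT + Sham and 18106553 to 21377841 for NT + Sham. Of 31034 genes with a row in the sham table, 16581 passed the filter on low counts and were tested. The labels do not say that the 6 libraries of a group were separate animals; each is called a mouse here, and all P values measure the spread between libraries only. Mouse 6 of HT + Sham stood apart from the other 11 libraries, so results are given with it and without it. Many phagocyte and reactive astrocyte genes were higher in it than in those libraries, at levels below or low within the range of NT + Stroke. A mislabelled library and an injured sham mouse cannot be told apart from these files, which bears on every HT + Sham value that includes mouse 6. Cortical markers were present in every library, with *Tbr1* at 92.4 to 148 CPM, and the striatal receptor gene *Drd1* was read as well, at 3.73 to 33.9 CPM. Marker genes of neighbouring regions such as the olfactory bulb also varied between libraries.

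No gene differed between HT + Sham and NT + Sham at an adjusted P under 0.05 in edgeR's quasi-likelihood test with Benjamini-Hochberg adjustment (0% of 16581 genes), and the smallest adjusted P was 0.406. At an unadjusted P under 0.05, called the nominal level from here on, angiotensin II mice had 822 genes at higher and 510 at lower levels, which is 4.96% and 3.08% of the genes tested (906 and 304 with scaling by library size alone in place of TMM, the trimmed mean of M values). The levels of the 2 groups did not overlap for 23 genes that were higher (0.139%) and 38 that were lower (0.229%). The 95% interval of the fold change lay within 2-fold in either direction for 93.8% of the genes and within 1.5-fold for 76.5%, and the median log2 fold change over all genes was -0.0014. Without mouse 6 there was again no gene under the adjusted threshold (0% of 16667), while 472 were higher and 303 lower at the nominal level (2.83% and 1.82%). Of the 16571 genes tested in both fits, 711 were under the nominal level in both, 621 in the fit with mouse 6 alone and 57 in the fit without it alone. Leaving out mouse 5 moved the counts the other way, to 1064 higher and 833 lower with a smallest adjusted P of 0.0517. In the fit of all 12 libraries every gene had an adjusted P of 0.406 or more, and a nominal result is a description of these libraries rather than a call. Values are CPM, a gene's counts scaled to library size, and log2 fold changes ± SE of HT + Sham over NT + Sham.

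Among moderately expressed genes whose groups did not overlap, *Dlx6os1* had the smallest P on the higher side. This long non-coding RNA of the *Dlx5* and *Dlx6* locus (chromosome 6, 6820189 to 6871592) is known from forebrain GABAergic neurons. The counting is not stated to use strand, so its reads cannot be told apart from those of genes on the opposite strand of the locus. It stood at 13.6 to 23.3 CPM (median 15.9) in HT + Sham and 8.45 to 13.03 CPM (median 11.5) in NT + Sham, a difference of 0.57 ± 0.13. The lowest HT + Sham mouse lay above every NT + Sham mouse, and the highest value, 23.3 CPM, was that of mouse 6. *Slc38a3*, a glutamine transporter of astrocytes, stood at 127 to 181 CPM (median 136) in HT + Sham and 98.3 to 119 CPM (median 114) in NT + Sham. Its difference was 0.34 ± 0.084, or 0.26 without mouse 6, and mice 1 to 5 alone spanned 127 to 147 CPM, all above NT + Sham.

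The other leading higher genes were of mixed kinds. *Hs3st3b1*, a heparan sulphate sulphotransferase, was 0.88 ± 0.22 with levels of 2.39 to 5.18 against 0.980 to 2.30 CPM in HT + Sham and NT + Sham. *Stac*, an adaptor of voltage-gated calcium channels, was 0.79 ± 0.21 with 1.99 to 3.98 against 1.25 to 1.95 CPM. The oligodendrocyte lineage factor *Zfp488* was 0.61 ± 0.19 with 2.62 to 3.09 against 1.04 to 2.49 CPM. These 3 genes were at low levels, and the lowest HT + Sham and highest NT + Sham mice were close together. *Rrbp1*, a ribosome-binding protein of the endoplasmic reticulum, was 0.24 ± 0.067, with mice 1 to 5 at 51.3 to 53.3 CPM and NT + Sham at 39.7 to 47.8 CPM. *Hspa2*, a heat shock protein of the HSP70 family, was 0.20 ± 0.063 with 42.9 to 47.8 against 35.7 to 42.3 CPM. The transcription factor *Mitf* was 0.44 ± 0.13, *Nkiras2*, a regulator of NF-kappa B inhibitors, was 0.28 ± 0.086, and *Mxra8*, a matrix-remodelling surface protein, was 0.43 ± 0.13. The imino acid transporter *Slc6a20a* and the peptide-loading chaperone *Tapbp* were 0.29 ± 0.084 and 0.21 ± 0.076. Without mouse 6 these 12 genes ranged from 0.14 for *Tapbp* to 0.72 for *Hs3st3b1*. Their positive sign in that fit follows largely from the choice of genes without overlap.

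On the lower side *Gm10591* had the smallest P and the largest fold change of the 12 leading genes. It is a copy of the chemokine gene *Ccl21*, whose product guides dendritic cells and T cells through the receptor Ccr7. Its annotated position is chr4:42612195-42612860 on the plus strand of GRCm38, in a cluster of near-identical copies that includes *Ccl21b* at chr4:42255767-42256432. Over the 402 bases of its GENCODE reference transcript *Gm10591* is the same as *Ccl21b* and as stretches of *Gm13304* and *Gm21541*, so the counting could assign their reads to any of them. The chromosome 4 copy of *Ccl21a*, which was not analysed here, differs at positions A84T and T194C, counted from 1 at the start codon with the base of *Gm10591* first. The stretch from base 61 to base 260 of both is printed here because it shows how little separates the copies, with the 2 differing bases in capitals:
Gm10591: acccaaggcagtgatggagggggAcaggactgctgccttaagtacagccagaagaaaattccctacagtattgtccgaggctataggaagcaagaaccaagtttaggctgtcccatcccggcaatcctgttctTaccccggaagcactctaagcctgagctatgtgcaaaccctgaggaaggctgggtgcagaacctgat
Ccl21a: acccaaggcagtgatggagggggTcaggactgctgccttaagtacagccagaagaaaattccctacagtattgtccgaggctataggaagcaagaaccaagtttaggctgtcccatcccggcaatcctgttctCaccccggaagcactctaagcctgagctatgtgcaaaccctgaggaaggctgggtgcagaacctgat

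Reads assigned to *Gm10591* numbered 38, 10, 9, 43, 27 and 50 in mice 1 to 6 of HT + Sham and 88, 115, 54, 69, 145 and 85 in those of NT + Sham. The groups did not overlap, and the difference was -1.53 ± 0.33, or -1.69 without mouse 6. DESeq2 gave it an adjusted P of 0.0432, the 1 gene that this tool put under 0.05. *Ccl21b*, which shares the sequence, had 29 to 55 reads per HT + Sham mouse and 27 to 88 per NT + Sham mouse, and its difference of -0.35 ± 0.26 did not reach the nominal level. Because the split between copies is uncertain, the reads of the copies in the table were also summed. The sums were 85, 87, 46, 102, 84 and 90 in HT + Sham and 164, 155, 135, 116, 210 and 181 in NT + Sham, again without overlap. The summed family differed by -0.83 ± 0.16 with an adjusted P of 0.406 in edgeR's quasi-likelihood test, and by -0.82 ± 0.18 without mouse 6. In stroke mice the groups overlapped, with sums of 73 to 246 reads under angiotensin II and 51 to 196 under saline.

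The remaining lower genes with separate groups had small differences and tight levels. *Coch*, which encodes the matrix protein cochlin (chromosome 12, 51593341 to 51605771), stood at 19.6 to 22.6 CPM (median 20.2) in HT + Sham and 22.7 to 27.1 CPM (median 25.3) in NT + Sham, a difference of -0.30 ± 0.069. Its mouse 6, at 22.6 CPM, was the highest of HT + Sham and nearly touched the lowest NT + Sham mouse, while mice 1 to 5 lay within 19.6 to 20.5 CPM. *Emb*, the embigin chaperone of monocarboxylate transporters, was -0.28 ± 0.071 with levels of 14.00 to 15.7 against 16.9 to 18.9 CPM. *Crem*, a cAMP-responsive transcriptional modulator, was -0.28 ± 0.077 with 12.1 to 14.5 against 15.1 to 17.8 CPM, and the cAMP phosphodiesterase gene *Pde4c* was -0.43 ± 0.13 with 3.29 to 5.34 against 5.59 to 6.68 CPM. *Tbr1*, a transcription factor of deep-layer cortical projection neurons, was -0.28 ± 0.074 with 92.4 to 130.3 against 131 to 148 CPM, its lowest value being that of mouse 6. *Fut9*, which builds the Lewis X glycan, was -0.27 ± 0.073, and *Magi2*, a synaptic scaffold, was -0.23 ± 0.064. *Btbd8*, *Btbd10*, *Plpp6* and *Pdlim1* ranged from -0.35 for *Pdlim1* to -0.23 for *Plpp6* (-0.31 for *Btbd8* and -0.23 for *Btbd10*). All 12 lower genes were negative without mouse 6, which again follows largely from the choice of genes without overlap. Of the 23 higher and 38 lower genes without overlap, 20 and 31 were under the nominal level in that fit, counts that the same choice favours.

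**Figure D1:**
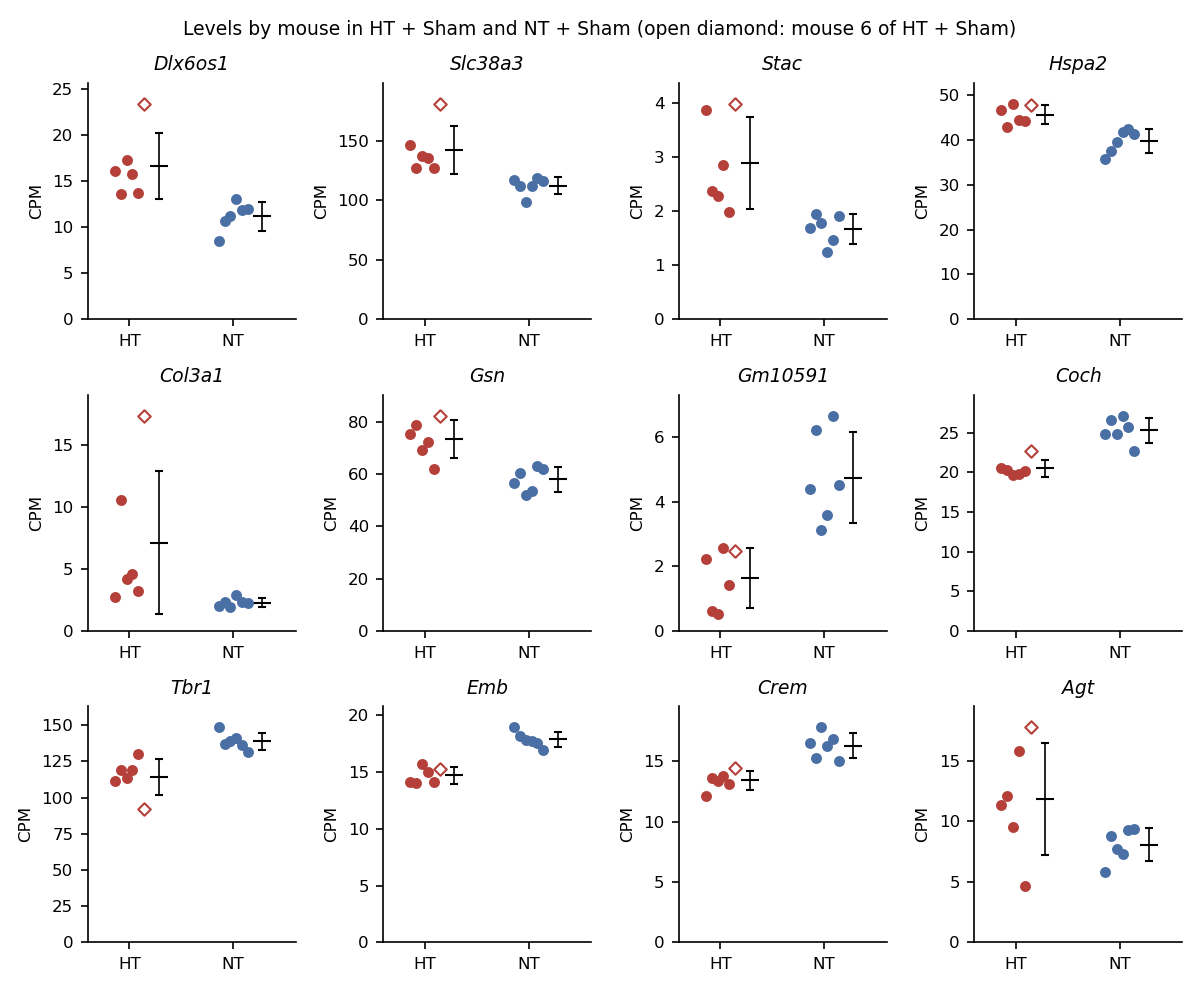
Level of 12 genes in each mouse of HT + Sham (red) and NT + Sham (blue), in CPM on axes that start at 0, with the bar and whiskers giving mean ± SD (n = 6) and the open diamond mouse 6 of HT + Sham. Emb and Crem show narrow groups with a gap between them and Coch shows groups that nearly touch at mouse 6, whereas the upper ends of Col3a1 and Agt in HT + Sham are set by mouse 6, at 17.4 and 17.8 CPM.

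Of 19 genes of the renin-angiotensin system, 13 were abundant enough to test and 2 were higher at the nominal level (15.4%, against 4.96% of all genes), with a list median of -0.035. With averages of olfactory bulb and striatal marker genes as covariates, called the region covariates from here on, none of the 13 was under the nominal level. In that fit 231 of 16581 genes were under it, so a count of none in a short list says little about its members. *Agt*, the angiotensinogen precursor made by astrocytes in brain, stood at 4.66 to 17.8 CPM (median 11.7) in HT + Sham and 5.85 to 9.39 CPM (median 8.25) in NT + Sham. Its difference was 0.56 ± 0.24 (95% interval 0.034 to 1.08), but the lowest mouse of all 12 was also in HT + Sham and the groups overlapped. Without mouse 6 *Agt* was 0.40 and no longer under the nominal level, and with the region covariates it was -0.081. *Agtrap*, which binds the type 1 receptor and promotes its internalisation, stood at 12.2 to 15.9 CPM (median 12.8) in HT + Sham and 8.07 to 12.3 CPM (median 11.3) in NT + Sham and differed by 0.35 ± 0.11, or 0.29 without mouse 6, where it kept its nominal level. With the region covariates *Agtrap* was 0.096 ± 0.16.

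The receptors and converting enzymes that could be tested showed no nominal difference. *Agtr1a*, the type 1a receptor, stood at 0.358 to 0.672 against 0.367 to 1.08 CPM and differed by -0.38 ± 0.32. Its 95% interval, -1.06 to 0.29, left out a 1.5-fold rise but not a 2-fold fall, so a sizeable decrease could not be resolved at this depth. *Agtr1b*, *Agtr2*, *Ren1*, *Hsd11b2* and *Cma1* were below the filter, with at most 0.663 CPM in any mouse, and *Ctsg* had no row in the sham table. Of these, *Cma1* had 1 to 11 reads per mouse in HT + Sham (21 in all, with 11 in mouse 2). In NT + Sham it had 1 read in all, and the difference was not tested. *Mas1* was -0.20 ± 0.15, and *Ace* was 0.022 ± 0.11 with 12.4 to 19.2 against 11.7 to 15.8 CPM. Among peptidases that degrade angiotensins, *Anpep* was 0.38 ± 0.22, *Mme* -0.31 ± 0.18, *Enpep* -0.00022 ± 0.17 and *Lnpep* -0.035 ± 0.079. *Anpep* reached 11.05 CPM in mouse 6 against 4.09 to 6.17 CPM in mice 1 to 5. The (pro)renin receptor *Atp6ap2* was -0.12 ± 0.067, the mineralocorticoid receptor *Nr3c2* was -0.047 ± 0.075, and cathepsin D (*Ctsd*) was 0.090 ± 0.12. For *Ace*, *Lnpep* and *Nr3c2* the intervals were -0.22 to 0.26, -0.20 to 0.13 and -0.21 to 0.11, which leaves out a 1.5-fold change in either direction.

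**Figure D2:**
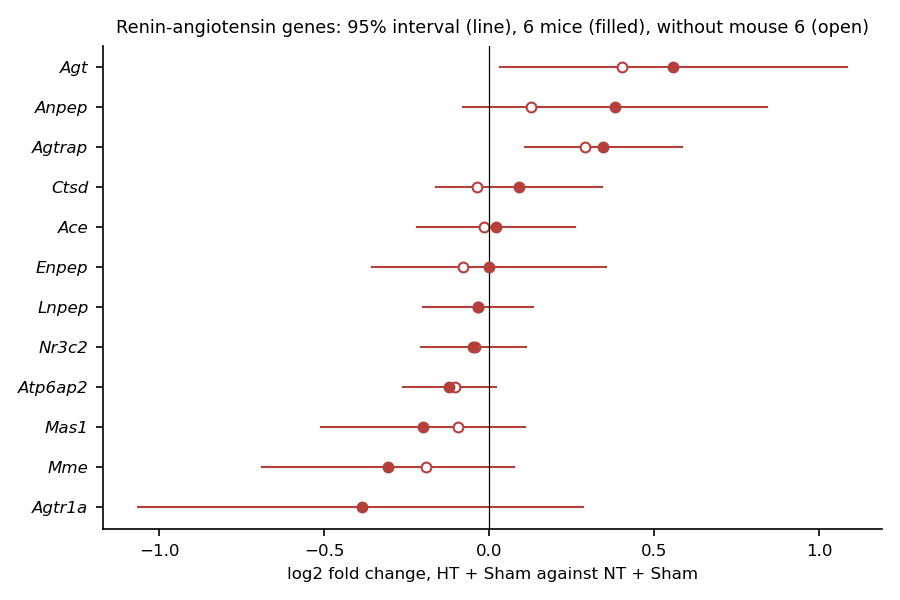
Log2 fold change of HT + Sham over NT + Sham for 12 of the 13 renin-angiotensin genes tested, with 95% intervals as lines, the estimate from 6 HT + Sham mice as filled points and that without mouse 6 as open points. The intervals of Agt and Agtrap alone lie to the right of 0. Agtr1a could not be tested without mouse 6 and has no open point.

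Among lists of genes for cell types, regions and pathways with at least 9 members tested, the olfactory bulb list had the median farthest from 0. These genes mark mitral and tufted cells, periglomerular cells and the interneurons that settle in the bulb. Of 18 members tested, 16 were higher in HT + Sham at the nominal level and none lower, against 4.96% of all genes, and the median log2 fold change was 0.98, against -0.0014 over all genes. *Dlx5* and *Dlx2*, homeobox genes of GABAergic neuron precursors, were 0.75 ± 0.19 and 0.70 ± 0.18. *Dlx5* stood at 13.99 to 36.03 CPM (median 22.8) in HT + Sham and 10.5 to 16.1 CPM (median 13.7) in NT + Sham. *Dlx1* and *Sp9*, which act in the same lineage, were 0.58 ± 0.17 and 0.72 ± 0.21, and *Calb2*, the calretinin gene of granule and periglomerular cells, was 1.11 ± 0.31 with 69.7 to 299 against 52.4 to 99.7 CPM. In each of the 18 genes the groups overlapped. Without mouse 6 the count was 15 of 18, against 2.83% of all genes, and the median 0.68.

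Neuroblast and subventricular zone genes, 5 of which are also in the bulb list, were higher in 8 of 17 (47.1%, against 4.96% of all genes) with a median of 0.33. Without mouse 6 they were higher in 6 of 17, against 2.83% of all genes, with a median of 0.24. *Cd24a*, a surface marker of migrating neuroblasts, was 0.48 ± 0.11 with 8.19 to 12.8 against 6.59 to 8.68 CPM. The olfactory sensory axon marker *Omp* was 1.48 ± 0.48 with 10.3 to 66.8 against 3.80 to 17.3 CPM, and *Vmn1r206*, a vomeronasal receptor gene, was 1.35 ± 0.30 with 0.856 to 1.59 against 0.259 to 0.735 CPM and no overlap. By contrast, striatal projection neuron genes had a median of -0.30 over 20 members (-0.13 without mouse 6). At the nominal level 1 member was higher and 1 lower (5% each, against 4.96% and 3.08% of all genes). *Drd1*, the dopamine receptor of the direct pathway, was -0.49 ± 0.41 with 3.73 to 24.99 against 11.2 to 33.9 CPM, *Arpp21*, a striatal phosphoprotein gene, was -0.13 ± 0.099 and *Foxp1* was -0.23 ± 0.10, whereas *Meis2*, which is also expressed in the bulb, was 0.36 ± 0.10.

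Levels of the bulb and striatal markers varied within each group. Averaged over the bulb genes as log2(CPM + 1), mice 1, 3 and 4 of HT + Sham stood at 5.47, 5.46 and 5.40 and mouse 6 at 6.18, all above the NT + Sham range of 4.14 to 4.88. Mice 2 and 5, at 4.81 and 4.60, lay within that range. The striatal average was 5.13 to 5.99 in mice 1 to 5, 4.43 in mouse 6 and 4.82 to 6.24 in NT + Sham, so mouse 6 had the highest bulb and the lowest striatal average of the 12. When both averages were entered as covariates, 117 genes were higher and 114 lower at the nominal level in place of 822 and 510, and no adjusted P was under 0.05 (smallest 1). In that fit the medians of the bulb, neuroblast and striatal lists were 0.0086, 0.035 and 0.020. Both averages are built from the list members themselves. The bulb average was 5.32 ± 0.56 in HT + Sham and 4.56 ± 0.27 in NT + Sham (SD, n = 6), so an effect of angiotensin II and one of the section cannot be told apart where both move with it. The striatal average, 5.40 ± 0.55 against 5.62 ± 0.54, differed by less than the spread within either group.

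**Figure D3:**
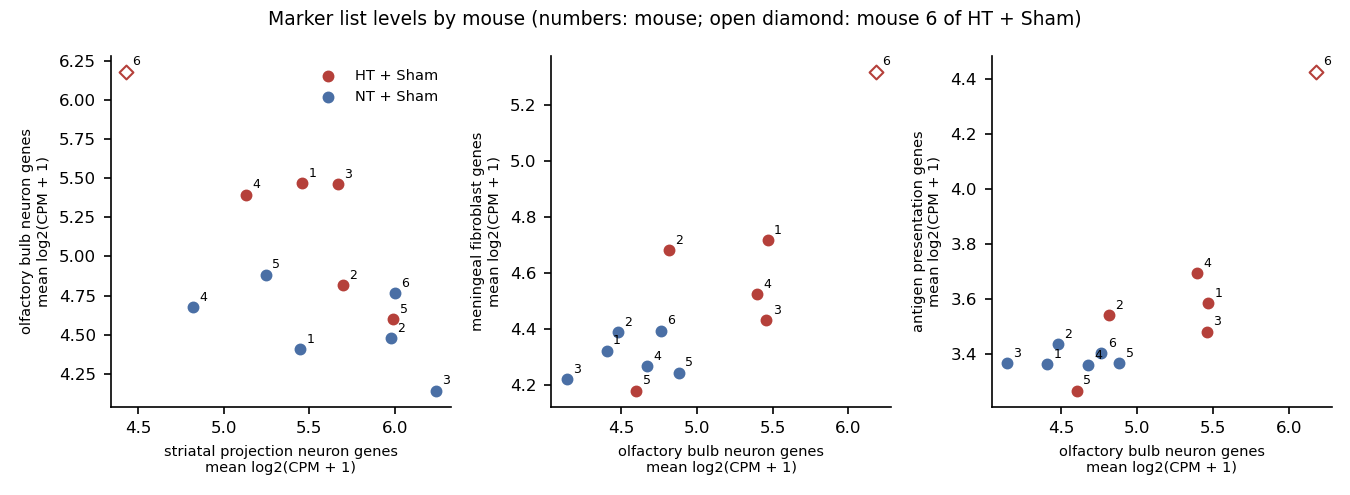
Average level of the olfactory bulb list against that of the striatal list, and of the meningeal fibroblast and antigen presentation lists against the bulb list, each as mean log2(CPM + 1) over the members tested, for the 12 sham mice (numbers give the mouse). Mouse 6 of HT + Sham is at an extreme of every axis, and mouse 5 of HT + Sham, at 4.60 on the bulb axis, lies among the NT + Sham mice in the left panel.

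Meningeal fibroblast and matrix genes came next. Of 21 fibroblast markers, 11 were higher at the nominal level (52.4%, against 4.96% of all genes) and none lower, with a median of 0.40. Without mouse 6 these were 8 of 21 and 0.24, against 2.83% of all genes higher. With the region covariates 2 of 21 were higher and 1 lower with a median of 0.0035, against 117 higher and 114 lower of 16581 genes. *Ogn*, the small leucine-rich proteoglycan osteoglycin, stood at 7.86 to 14.7 CPM (median 9.79) in HT + Sham and 5.70 to 7.90 CPM (median 6.62) in NT + Sham, a difference of 0.60 ± 0.14. *Islr*, a stromal immunoglobulin-domain protein, was 0.78 ± 0.24, and mouse 5 was the lowest of all 12 at 32.4 CPM while mouse 6 was the highest at 113 CPM. The fibrillar collagen gene *Col3a1* stood at 2.76 to 17.4 CPM (median 4.39) in HT + Sham and 1.90 to 2.91 CPM (median 2.30) in NT + Sham. Its difference was 1.64 ± 0.45, 1.14 without mouse 6 and 1.31 with the region covariates.

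Collagens and basement membrane genes were higher in 8 of 27, or 29.6% against 4.96% of all genes (median 0.22). Without mouse 6 they were higher in 4 of 27, against 2.83% of all genes (median 0.14). *Lama5*, a laminin chain of vascular basement membranes, was 0.37 ± 0.13, and *Col18a1* and *Col6a1* were 0.52 ± 0.19 and 0.27 ± 0.10. Of the TGF-beta and profibrotic genes 3 of 21 were higher, against 4.96% of all genes: the elastin crosslinking enzyme gene *Loxl1* (0.52 ± 0.16) and the latent TGF-beta binding proteins *Ltbp2* (1.42 ± 0.44) and *Ltbp3* (0.23 ± 0.099). *Ltbp2* stood at 1.36 to 9.61 against 0.812 to 2.08 CPM. Matrix metalloproteinases and their inhibitors were higher in 3 of 16, or 18.8%, namely *Adamts5* (0.60 ± 0.19), *Mmp2* (0.59 ± 0.20) and *Mmp19* (0.77 ± 0.31). Mouse 5, the lowest of HT + Sham in the bulb average, was also the lowest in the meningeal average, at 4.18 against 4.22 to 4.40 in NT + Sham.

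Among glial and immune lists, those of reactive astrocyte, complement, antigen presentation and phagocyte genes had medians above 0 that were closer to 0 without mouse 6, and most of their members were not under the nominal level. Myelin genes had a median of -0.086 with 2 of 28 higher and 1 lower, and homeostatic microglia genes one of 0.10 with 2 of 19 higher, against 4.96% of all genes higher and 3.08% lower. Reactive astrocyte genes were higher in 7 of 21 with a median of 0.28. Without mouse 6 they were higher in 4 of 21 with a median of 0.13, against 2.83% of all genes. *Vim*, the intermediate filament vimentin, had no overlap between groups, with 47.9 to 56.8 CPM in mice 1 to 5, 106 CPM in mouse 6 and 41.8 to 46.1 CPM in NT + Sham. It differed by 0.46 ± 0.18 with mouse 6 and by 0.21 ± 0.065 without it. Ceruloplasmin (*Cp*), a copper-carrying ferroxidase, was 0.42 ± 0.15, *Emp1* was 0.57 ± 0.23, and the complement C1 inhibitor *Serping1* was 0.64 ± 0.25 (0.31 without mouse 6). The complement component *C4b*, whose reads may be shared with its near copy *C4a*, stood at 25.03 to 84.7 against 18.2 to 25.99 CPM and was 0.82 ± 0.29, or 0.45 without mouse 6, and complement genes as a list were higher in 2 of 17 with a median of 0.25 (0.095 without mouse 6).

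Antigen presentation genes were higher in 4 and lower in 1 of 14 (28.6% and 7.14%, against 4.96% and 3.08% of all genes). Their median of 0.33 became 0.16 without mouse 6 and -0.086 with the region covariates. *H2-Aa*, a chain of MHC class II, stood at 2.30 to 19.1 CPM (median 6.88) in HT + Sham and 2.76 to 4.19 CPM (median 3.71) in NT + Sham, and *H2-K1*, a class I heavy chain, at 40.3 to 87.1 against 37.3 to 44.4 CPM. Reads of class I genes may be shared among close paralogs. The genes differed by 1.22 ± 0.38 and 0.38 ± 0.16, and by 0.77 and 0.17 without mouse 6. The member that was lower was *H2-DMa*, which helps load peptide on class II, at -0.21 ± 0.093. Disease-associated microglia and phagocyte genes were higher in 4 of 15 (26.7%), among them *Spp1* (0.94 ± 0.41) and *Apoe* (0.35 ± 0.16). Without mouse 6 they were higher in 1 of 15, against 2.83% of all genes, and *Spp1* was 0.36 and *Apoe* 0.20. T cell, B cell and mast cell lists had 3 or 4 members above the filter, with medians of -0.18, 0.038 and -0.073 (0.027, -0.13 and -0.073 without mouse 6), and *Ighm*, the heavy chain gene of IgM, was -0.28 ± 0.081 with 36.2 to 47.1 against 41.5 to 54.9 CPM.

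NADPH oxidase and antioxidant genes were examined for the known link of angiotensin II with superoxide. Of 17 tested, 3 were higher at the nominal level (17.6%, against 4.96% of all genes): *Cybb*, the catalytic subunit of the phagocyte oxidase (1.11 ± 0.51), its partner *Cyba* (0.47 ± 0.21), and *Hmox1*, haem oxygenase (0.46 ± 0.18). *Cybb* stood at 4.03 CPM in mouse 6 and 0.489 to 1.23 CPM in mice 1 to 5, against 0.318 to 1.35 CPM in NT + Sham. Without mouse 6 none of the 17 was under the nominal level, against 2.83% of all genes higher and 1.82% lower. The list median went from 0.069 to -0.013.

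Vascular lists had few members under the nominal level. None of 21 endothelial and blood-brain barrier genes, which include claudins, transporters and endothelial receptors, was under the nominal level, and their median was 0.0024 (-0.010 without mouse 6). Of 12 endothelial activation genes 1 was higher (8.33%, against 4.96% of all genes). This was *Vwf*, which encodes von Willebrand factor and stood at 20.6 to 33.3 CPM (median 27.7) in HT + Sham and 18.3 to 21.8 CPM (median 19.7) in NT + Sham. Its difference was 0.43 ± 0.097, 0.41 without mouse 6 and 0.58 with the region covariates, of like size in all 3 fits. The endothelial activation list had a median of 0.19 with 11 of 12 positive (0.060 and 10 of 12 without mouse 6). With the region covariates 2 of 12 were higher, against 117 of 16581 genes. Of 18 smooth muscle and pericyte genes 1 was higher (5.56%), close to the share of 4.96% over all genes. It was the matrix glycoprotein vitronectin (*Vtn*), at 95.7 to 149 against 87.01 to 103 CPM and 0.32 ± 0.087 (0.25 without mouse 6). Vasoactive enzymes and receptors were higher in 3 of 25 (12%, against 4.96% of all genes). These were the endothelin ligand *Edn3* (0.36 ± 0.13), the endothelin B receptor *Ednrb* (0.30 ± 0.11) and neuronal nitric oxide synthase *Nos1* (0.23 ± 0.10). *Edn3* was the member still under the nominal level without mouse 6, at 0.30.

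Ion channel genes and genes of dendrites and the cytoskeleton were lower more often than higher in the fit of all 12 libraries without covariates. Receptor and synapse lists showed less of this. Glutamate receptor genes were higher in 1 and lower in 2 of 28 (3.57% and 7.14%, against 4.96% and 3.08% of all genes). GABA receptor genes were higher in 1 and lower in 1 of 18 (5.56% each). Among 27 potassium and other ion channel genes 8 were lower and 1 higher at the nominal level, against 3.08% of all genes lower, with a median of -0.086. The sodium channel *Scn1a* was -0.20 ± 0.085, the potassium channel *Kcnq5* -0.18 ± 0.076 and the cation channel *Trpc6* -0.37 ± 0.15. Without mouse 6, 2 of 27 were lower, against 1.82% of all genes, and the median was -0.054. With the region covariates none was lower, against 114 of 16581 genes, and the median was -0.021. The filament genes *Nefl*, *Ina* and *Nefm* were lower, while *Nefh* was not under the nominal level. *Nefl* stood at 220.4 to 289 CPM (median 276) in HT + Sham and 294 to 329 CPM (median 306) in NT + Sham without overlap. It differed by -0.24 ± 0.075, *Ina* by -0.18 ± 0.061 and *Nefm* by -0.15 ± 0.073. *Nefl*, *Ina* and *Nefm* were the 3 lower members of 22 dendrite and cytoskeleton genes (13.6%, against 3.08% of all genes). Without mouse 6, 2 of 22 were lower, against 1.82% of all genes. With the region covariates none of the 22 was under the nominal level, against 231 of 16581 genes.

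Cortical layer genes went both ways. Of 16 deep-layer genes 3 were higher and 3 lower (18.8% each, against 4.96% and 3.08% of all genes). *Tbr1* and *Fezf2*, the factor of subcortical projection neurons (-0.33 ± 0.12), were among the lower, and *Syt6* (0.45 ± 0.12) and *Tshz2* (0.51 ± 0.19) among the higher. Without mouse 6 the counts were 2 and 2, against 2.83% and 1.82% of all genes. With the region covariates they were 1 and 1, against 117 and 114 of 16581 genes. Upper-layer genes were higher in 2 and lower in 3 of 13 (15.4% and 23.1%). Without mouse 6 they were higher in 2 and lower in 1, and with the region covariates none was under the nominal level. Among interneuron genes 3 of 16 were higher (18.8%, against 4.96% of all genes), which were *Calb2*, the glutamate decarboxylase gene *Gad1* (0.38 ± 0.15) and *Reln* (0.38 ± 0.12), all of which are also made in the bulb. The count was again 3 of 16 without mouse 6, and none was higher with the region covariates. Immediate early genes were lower in 2 of 21 (*Homer1* at -0.23 ± 0.083 and *Nr4a2* at -0.33 ± 0.14) and higher in 1, against 3.08% and 4.96% of all genes, and their median of -0.10 became 0.14 with the region covariates. None of 26 ribosomal protein genes and none of 25 nuclear oxidative phosphorylation genes was under the nominal level, with medians of 0.0047 and 0.0044.

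**Figure D4:**
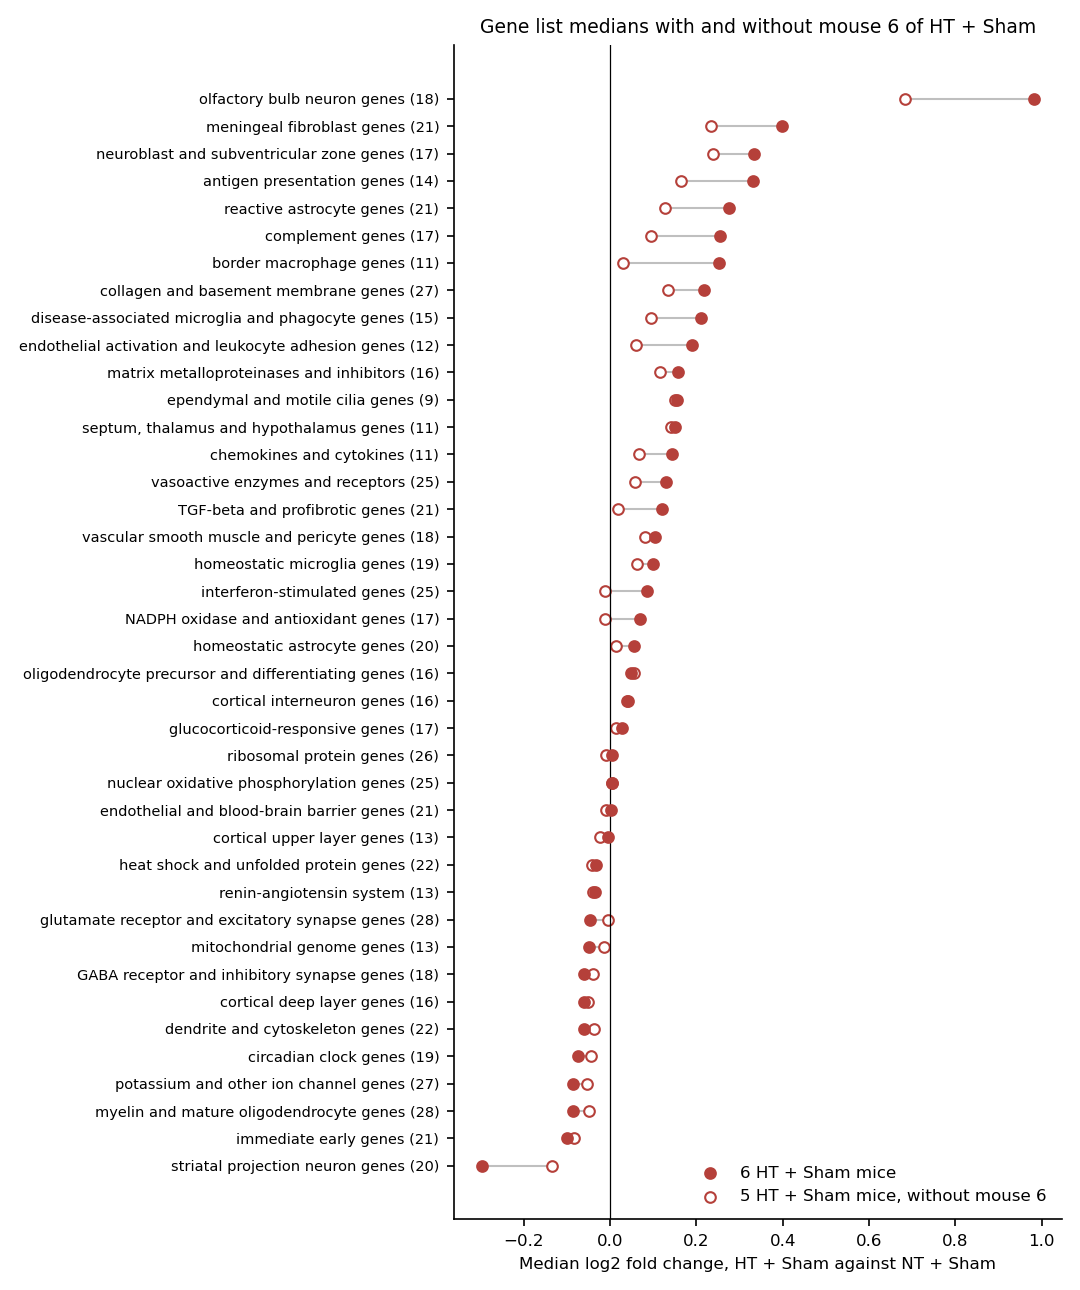
Median log2 fold change of HT + Sham over NT + Sham for each gene list with at least 9 members tested, with the number tested in brackets, from all 6 HT + Sham mice (filled) and without mouse 6 (open). The olfactory bulb list lies at 0.98 and 0.68, meningeal fibroblast genes at 0.40 and 0.24, and the striatal list at the other end at -0.30 and -0.13.

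Mouse 6 of HT + Sham had phagocyte genes far above the other 11 sham mice. *Lgals3*, *Gpnmb* and *Lyz2*, which mark lipid-laden phagocytes and macrophages, stood at 15.98, 78.6 and 163 CPM in mouse 6. The other 5 mice of HT + Sham spanned 0.401 to 1.14, 4.14 to 10.8 and 12.7 to 18.3 CPM, within or near NT + Sham at 0.10 to 1.09, 5.01 to 7.21 and 10.2 to 15.2 CPM. Some reads of *Lyz2* may be shared with its near copy *Lyz1*. The log2 fold change of *Lgals3* over all 6 mice was 2.51 ± 1.03 and without mouse 6 0.50 ± 0.41, and those of *Gpnmb* and *Lyz2* went from 1.66 and 1.61 to 0.32 and 0.25. The other genes whose difference moved most were *Lcn2* (1.76 to 0.26), *A2m* (0.98 to -0.12), *Sfrp4* (0.91 to 0.0060), *Ccl27b* (1.04 to 0.20), whose reads may be shared with paralogs, and *Igkc* (1.59 to 0.80).

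The 4 genes *Gfap*, *Cd5l*, *C3* and *Serpina3n*, chosen after their values were seen, place mouse 6 against stroke on a scale common to all 24 libraries. *Gfap*, the astrocyte filament, stood at 542 CPM in mouse 6, at 163 to 241 CPM in mice 1 to 5, at 151 to 185 CPM in NT + Sham and at 592 to 1053 CPM in NT + Stroke. *Cd5l*, a macrophage protein, was 13.6 CPM in mouse 6, at most 0.373 CPM in mice 1 to 5 and 2.70 to 71.1 CPM in NT + Stroke. Complement *C3* and the astrocyte serpin *Serpina3n* stood at 10.4 and 55.9 CPM in mouse 6, below the NT + Stroke ranges of 22.2 to 77.00 and 69.3 to 136 CPM. Mouse 6 lay between NT + Sham and NT + Stroke for *Gfap*, *C3* and *Serpina3n* and inside the NT + Stroke range for *Cd5l*.

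**Figure D5:**
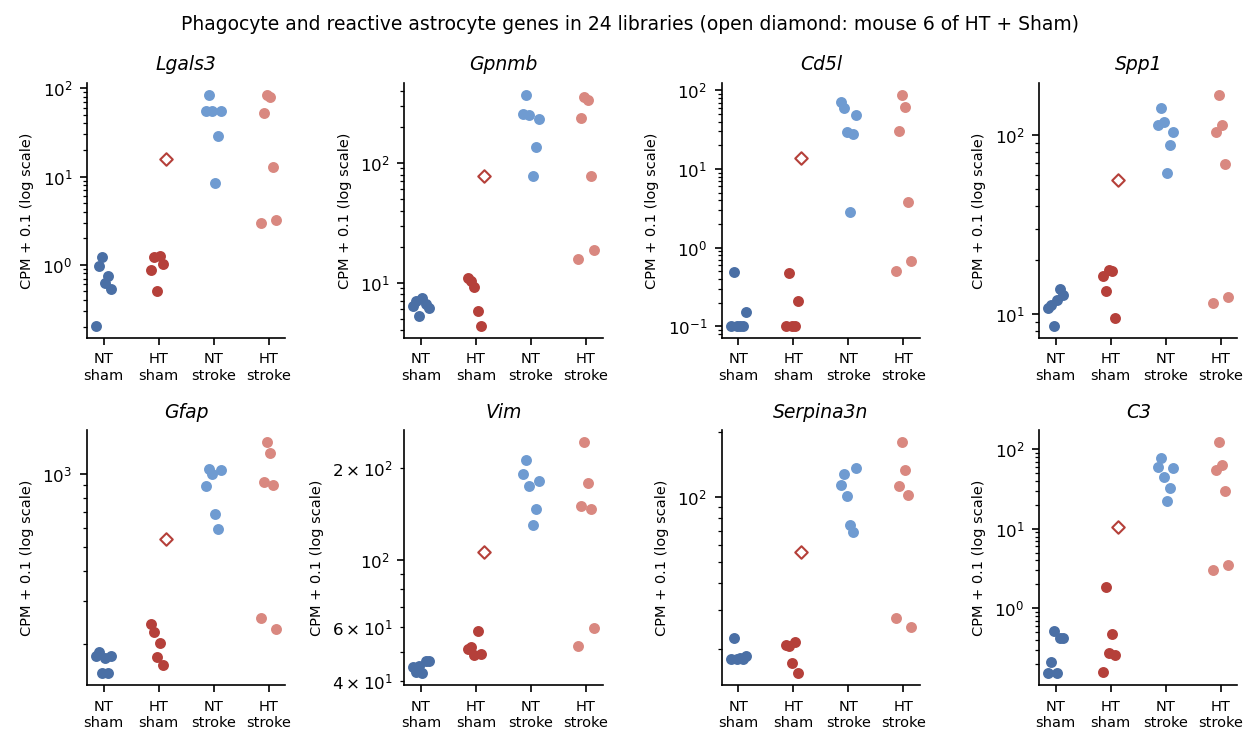
Levels of 8 phagocyte and reactive astrocyte genes in all 24 libraries on a log axis of CPM + 0.1, by group, with mouse 6 of HT + Sham as an open diamond. For each gene mouse 6 lies above the other 11 sham mice, as for Gfap at 542 against 151 to 241 CPM. The HT + Stroke group also holds 2 mice at low levels.

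Across the transcriptome mouse 6 was shifted in the direction of the difference between NT + Stroke and NT + Sham. Stroke in normotensive mice raised 2426 and lowered 1939 of 16835 genes at an adjusted P under 0.05 in edgeR's quasi-likelihood test (14.4% and 11.5%). Of the 2284 raised genes that were tested in sham mice, mouse 6 was the highest of the 6 HT + Sham mice in 58.6% and the lowest in 2.80%, whereas over all genes it was the highest in 17.4%. Of the 1939 lowered genes it was the lowest in 59.8%, against 20.3% over all genes. Its median shift from the other HT + Sham mice was 0.32 on the log2 scale for the raised genes, where the median stroke difference was 0.63. Across 16477 genes the shift of mouse 6 correlated with the stroke difference at Pearson r = 0.53, while r for each other HT + Sham mouse lay between -0.25 and 0.01. Mouse 6 was part of the mean that each of the other mice was set against, which lowers their r by construction. Genes are not independent replicates, and these coefficients only describe 1 library.

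With mouse 6 left out, the genes of smallest P were partly those named above. On the higher side they included *Dlx6os1*, *Dlx2*, *Gsn* and *Mdga1*. *Gsn*, the actin-severing protein gelsolin, differed by 0.34 ± 0.076 with all mice and 0.30 ± 0.076 without mouse 6. *Mdga1*, a neuroligin-binding adhesion protein, differed by 0.54 ± 0.12 (0.72 with mouse 6). On the lower side they were *Gm10591*, *Coch*, *Emb*, *Crem* and *Ighm*, at -1.69, -0.34, -0.29, -0.30 and -0.33. The smallest adjusted P in this fit was 0.822.

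Angiotensin II was also given to mice with a photothrombotic stroke, and the 6 HT + Stroke and 6 NT + Stroke libraries, which share no library with the sham comparison, gave another estimate. There too no gene was under the adjusted threshold in edgeR's quasi-likelihood test (smallest adjusted P 0.654). Of 17008 genes tested, 569 were higher and 661 lower at the nominal level. Libraries 1 and 6 of HT + Stroke had low levels of injury genes. *Gfap* stood at 255 and 230 CPM in them and at 592 to 1053 CPM in NT + Stroke, and *Gpnmb* at 15.8 and 18.5 against 77.9 to 372 CPM. The stroke comparison thus mixes the infusion with a spread in injury, whose part was not tested. The bulb list had a median of -0.70 in stroke mice against 0.98 in sham mice, the meningeal list -0.28 against 0.40, and the striatal list 0.19 against -0.30. Of 1324 genes at the nominal level in sham mice and tested in both, 307 (23.2%) had the same sign in stroke mice, against 44.3% of all 16407 genes, and without mouse 6 the shares were 28.9% of 766 and 47.1% of 16446. Of 113 genes at the nominal level in both comparisons, 8 had the same sign.

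Single genes named above had these values after stroke. *Gm10591* was 0.30 ± 0.59 in stroke mice, *Dlx6os1* -0.24 ± 0.13, *Ogn* -0.58 ± 0.35, *Mitf* -0.49 ± 0.18 and *Slc6a20a* -0.45 ± 0.19, each opposite in sign to sham mice. *Emb* and *Crem* kept their sign at -0.14 ± 0.16 and -0.082 ± 0.076, with differences of about the size of their errors. *Agt* was -0.25 ± 0.21 and *Agtrap* -0.20 ± 0.17 in stroke mice. The difference between the angiotensin II effects in stroke and in sham mice, fitted as an interaction over 24 libraries, gave no gene with an adjusted P under 0.05 (0% of 17608, smallest 0.262), whereas DESeq2 put 16 genes under that threshold, *Sp9*, *Zic2*, *Syt6* and *Vmn1r206* among them. At the nominal level the interaction was above 0 in 800 and below 0 in 1036 genes, and it was below 0 in 16 of the 18 bulb genes, in 11 of the 17 neuroblast genes and in 9 of the 21 meningeal genes. For the summed *Ccl21* copies it was 1.28 ± 0.36 with an adjusted P of 0.318 in edgeR's quasi-likelihood test. The average of the bulb markers moved with this reversal as well, and its part in it was not tested.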

How the data were processed

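Libraries were poly(A)-selected and sequenced on an Illumina platform. The authors deposited whole-number read counts per gene, not normalized, and the submitters' processing notes name featureCounts 1.5.0-p3 and DESeq2 1.20.0. The aligner and genome build are not given in the sources used here, and positions are those of the GRCm38 annotation that the gene identifiers matched. The deposited comparison columns (fold changes, P values) were not used. Each of the 4 groups has 1 sample label and 6 numbered count columns.

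Genes passed edgeR's filterByExpr (10 counts, total 15), were scaled by TMM and tested with the quasi-likelihood test (edgeR 4.0.16, R 4.3.3) on the 12 sham libraries without covariates, with Benjamini-Hochberg adjustment at 0.05. CPM used TMM library sizes. The method was tested on simulated data. Alternatives were DESeq2 1.42.0, limma 3.58.1 (voom with weights), other scalings and filters, all 4 groups in one fit, a replicate block and leaving out each library, and, chosen after seeing the data, region scores as covariates.

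Named genes were the 12 with the smallest P per direction with log2 CPM above 1 and no overlap, up to 4 per list, all renin-angiotensin members, the 8 that moved most without mouse 6 (log2 CPM above 0) and 5 per direction in the fit without it. A few of these are not reported here. Members and lists were chosen with earlier results of these data known.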

Additional observations from a re-analysis of the deposited data

Results flagged for a closer look

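For each named gene and each list average, the gap between the most extreme mouse of a group and its neighbour was divided by the range of the group, and a ratio above Dixon's 95% critical value for 6 samples marked a library far from the others. Chance alone marks about 1 in 20 groups, and 40 of 304 were marked. The named genes include 8 chosen because they moved most when mouse 6 was left out, whose marks for that library follow from the choice, so the count is not set against the chance rate. In 28 of these the library was mouse 6 of HT + Sham, each time as the highest. Its ratios for single genes were *A2m* 0.857, *Anpep* 0.701, *C4b* 0.760, *Ccl27b* 0.727, *Coch* 0.716, *Cybb* 0.790, *Dlx2* 0.659, *Gpnmb* 0.910, *H2-Aa* 0.679, *H2-K1* 0.75, *Hmox1* 0.732, *Lcn2* 0.890, *Lgals3* 0.953, *Lyz2* 0.962, *Mxra8* 0.749, *Rrbp1* 0.819, *Serping1* 0.765, *Sfrp4* 0.852, *Slc38a3* 0.634, *Spp1* 0.827 and *Vim* 0.847. For averages over lists they were NADPH oxidase and antioxidant genes 0.694, border macrophage genes 0.722, disease-associated microglia and phagocyte genes 0.772, neutrophil and monocyte genes 0.797, antigen presentation genes 0.631, reactive astrocyte genes 0.803 and homeostatic astrocyte genes 0.728. *Coch* is the exception among these in that the gene was lower in HT + Sham, so there mouse 6 lay nearest to NT + Sham.

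The other 12 were NT + Sham libraries. For single genes the ratios were *Cybb* 0.640 (library 2 highest), *Foxp1* 0.668 (library 3 highest), *Igkc* 0.745 (library 4 highest), *Lnpep* 0.717 (library 4 highest), *Rrbp1* 0.714 (library 3 lowest), *Scn1a* 0.674 (library 4 highest), *Sfrp4* 0.818 (library 2 lowest) and *Slc38a3* 0.668 (library 3 lowest). For averages over lists they were homeostatic microglia genes 0.748 (library 6 lowest), immediate early genes 0.679 (library 3 highest), GABA receptor and inhibitory synapse genes 0.653 (library 4 highest) and potassium and other ion channel genes 0.669 (library 4 highest).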

How the results depend on the processing

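DESeq2 called 1 gene in the sham comparison (adjusted P 0.0432) and 16 in the interaction, where edgeR called none of either, and no other setting called a gene in the sham comparison (smallest adjusted P 0.0517 without HT + Sham library 5, otherwise 0.224 to 1). The nominal counts of 822 higher and 510 lower became 1341 and 1026 over all genes with a count, and 304 lower with scaling by library size alone. They were 117 and 114 with the region covariates and 120 and 97 with these and without library 6. Leaving out 1 library gave 472 to 1064 higher and 303 to 833 lower, with the lowest counts without library 6 and the highest without library 5 of HT + Sham. Genes without overlap, 23 higher and 38 lower, were 28 to 137 and 47 to 134 on leaving out 1 library, where fewer values have to separate by construction, and 12 lower with library size alone.

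With the region covariates, and then also without library 6, list medians were 0.0086 and 0.026 for bulb, 0.035 and 0.049 for neuroblast, 0.0035 and 0.13 for meningeal fibroblast, -0.022 and 0.055 for reactive astrocyte and -0.086 and 0.044 for antigen presentation genes. Of 103 named genes 21 changed sign in some setting, 5 of them outside the covariate fits. In both covariate fits *Agt* was -0.081 and -0.085, *Mas1* 0.18 and 0.12, *Ctsd* -0.12 and -0.026, *Ace* -0.26 and -0.24, *Enpep* 0.075 and 0.15, *Sfrp4* -0.38 and -0.10, *Sp9* -0.099 and -0.091, *Lama5* -0.071 and -0.0023, *Spp1* -0.27 and -0.14, *Gad1* -0.080 and -0.056, and *Omp* -0.024 and -0.082. In the covariate fit of all libraries *A2m* was -0.44, *Gpnmb* -0.34, *Lcn2* -0.087, *Lyz2* -0.21, *Dlx5* -0.022, *Apoe* -0.0096, *Cybb* -0.33, *Nefm* 0.0077 and *Ltbp3* -0.012. With voom *Lnpep* was 0.015 and *Ace* -0.028, and *Enpep* was 0.020 with library size, 0.013 with upper-quartile scaling and 0.0020 with at least 10 counts in every library. On leaving out 1 library *Lnpep* ranged from -0.073 to 0.023, *Ace* from -0.076 to 0.063, *Enpep* from -0.079 to 0.055, *Ctsd* from -0.037 to 0.16 and *A2m* from -0.12 to 1.17, the lowest of the last 2 being without library 6. The cause of these changes was not tested.

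With library number as a replicate block 740 genes were higher and 579 lower at the nominal level, none was called and the smallest adjusted P was 0.435. Libraries of the same number correlated at -0.22 to 0.23 in their deviations from the group means, and none correlated best with its own number. Differences in region and injury also enter these deviations, so the coefficients show no pairing by number but cannot exclude one. *Gapdh*, described below, was high in libraries 2 and 6 of both sham groups.

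At these depths intervals were widest for genes near the filter, so that a decrease of the low gene *Agtr1a* remains unresolved.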

Other observations

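*Gapdh*, a glycolytic gene often used as a reference, fell into 2 levels that did not follow the groups. Libraries 2 and 6 stood at 504 and 335 CPM in HT + Sham and at 271 and 448 CPM in NT + Sham, while the other 8 libraries lay between 16.6 and 22.3 CPM. The high libraries thus had the same numbers in both sham groups, whereas in stroke mice their numbers differed between HT + Stroke and NT + Stroke. Whether a batch was shared by number was not tested. *Gapdh* was singled out after its values were seen, and its difference between the sham groups was 0.21 ± 1.28.

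Of 15 genes listed for lacrimal, salivary and nasal glands 3 were tested, and all 3 were higher in HT + Sham at the nominal level (median log2 fold change 1.35, or 1.17 over the 4 tested without library 6), against 4.96% of all genes. These were *Omp*, *Vmn1r206* and the amylase gene *Amy1* (0.29 ± 0.096), the first 2 being genes of olfactory and vomeronasal neurons. A pair of members below the filter, singled out after their values were seen, had nearly all their reads in NT + Sham. *Mucl2* stood at 82.6 CPM in library 3, 11.2 CPM in library 5 and at most 2.32 CPM in the other NT + Sham libraries, and at 0 CPM in 5 of 6 HT + Sham libraries, with 0.148 CPM in the remaining one. *Scgb1b27*, a secretoglobin gene, stood at 15.2 CPM in library 3 and 1.39 CPM in library 5 of NT + Sham and had no read in HT + Sham.

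Haemoglobin genes varied most within HT + Sham. *Hbb-bs* stood at 143 CPM in library 5 and at 22.1 to 59.97 CPM in the other HT + Sham libraries, against 29.1 to 43.6 CPM in NT + Sham, and *Hba-a1* at 124 and 19.8 to 64.8 CPM against 27.1 to 41.96 CPM. In median log2 fold change, red blood cell genes stood at 0.53 with none of 6 under the nominal level, at 1.35 with 5 of 6 higher in the fit with region covariates, and at -0.0091 with limma voom. Library 5 of HT + Sham was also the lowest of its group in the olfactory bulb and meningeal averages. The study's methods state that the mice were perfused with saline before tissue was taken. The part of residual blood in any result was not tested.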
